A study of Mus musculus with 3 samples.

Results

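The cells described here are 105 group 2 innate lymphoid cells (ILC2) of the mouse lung that were chosen because each held at least 2 transcript molecules of Csf1 and Dach2 combined. They came from 1 of 3 droplet single-cell RNA libraries, the one sorted as IL-18R- ST2+, and made up 105 of the 5164 cells kept over the series. The members were selected on measured UMI counts (unique molecular identifiers, 1 per captured transcript). A cell was a member if it held at least 2 UMIs of Il1rl1 and Gata3 together, none of Cd3e or Cd3d, none of Il5 or Il13, and at least 2 of Csf1 and Dach2 together. The 908 cells that met the first 3 conditions and held fewer than 2 Csf1 and Dach2 UMIs are the cells they were set against, called the rest below. All 1013 are ILC2-gated cells of 1 library.

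ILC2 are tissue-resident lymphocytes without antigen receptors that depend on the transcription factor GATA3 and answer the epithelial alarmin IL-33 through its receptor ST2, the product of Il1rl1. In the lung they are known for releasing IL-5 and IL-13, amphiregulin and GM-CSF. Csf1 encodes the growth factor that keeps macrophages alive through the receptor CSF1R, and Dach2 encodes a nuclear cofactor of the dachshund family, which works with EYA proteins in development. The other genes listed as markers of these cells were Klrg1 (an inhibitory receptor of mature ILC2), Tspan32 (a tetraspanin of blood cells), Vipr2 (a receptor for vasoactive intestinal peptide) and Arg1 (the enzyme that splits arginine).

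The mice carried a GFP reporter of GFI1B, a transcriptional repressor of blood cell development. The 3 libraries were an IL-18R- ST2+ sort, a pool that mixed 2 IL-18R+ sorts (CD103+ GFP- and CD103- GFP+), and an IL-18R- CD103- GFP- sort, all taken from lung cells that were alive, lineage negative and positive for CD45, CD90.2 and IL-7R. The labels give no GFP status for the IL-18R- ST2+ sort, and no age, sex, treatment or number of mice. With 1 library in each group no difference below has a replicate check, and no test was run. Every interval is a 95% interval of counting error alone, since cells of 1 library are not replicates.

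Of 1760 barcodes in the IL-18R- ST2+ library, 1622 had 500 genes or more with no more than 10% of UMIs mitochondrial, and 1493 of those passed the ILC2 gate. The members were 7.03% of the gate (exact binomial interval 5.79 to 8.45%). Members were slightly deeper than the rest and alike in mitochondrial share. Members held a median of 4880 UMIs (1218 to 11848) and 1644 genes, against 4396 UMIs (985 to 10939) and 1517 genes in the rest. Median mitochondrial UMIs were 3.96% in members and 3.89% in the rest. After each cell was thinned to 2500 UMIs, which 101 members and 882 of the rest allowed, the median was 1063 genes in members and 1047 in the rest. Scrublet called 1 member and 4 of the rest doublets. No barcode of the IL-18R- ST2+ library was found in either other library, and those 2 shared 1.

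Csf1 and Dach2 were largely transcripts of the IL-18R- ST2+ library. Csf1 stood at 28.2 UPM (summed UMIs of a gene per 1000000 summed UMIs of all genes) in that library, against 1.89 UPM in the IL-18R+ pool and 2.16 UPM in the IL-18R- CD103- GFP- library. Dach2 stood at 67.2 UPM, against 0.222 and 0.412 UPM in the same order, which were 2 and 4 UMIs in all. None of the 146 pool cells and 49 IL-18R- CD103- GFP- cells that passed the same ILC2 gate was a member. Within the IL-18R- ST2+ library a Dach2 UMI was found in 25.8% of gate cells (median 4592 UMIs) and in 12 of 64 cells outside the gate that held a Cd3e or Cd3d UMI (18.8%, interval 10.1 to 30.5%, median 4843 UMIs). A Csf1 UMI was found in 11.9% of gate cells and in 2 of those 64 (3.13%, 0.381 to 10.8%). The Dach2 share in those 64 cells overlapped that of the gate, and the part of free RNA in these shares was not tested.

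Membership rested on very few molecules. Among the 1013 cells, 652 had no UMI of either gene, 256 had 1, 79 had 2, 16 had 3, 7 had 4, 2 had 5 and 1 had 6, so 75.2% of members sat exactly on the threshold. By source, 50 members held Dach2 alone, 15 held Csf1 alone and 40 held both. Csf1 UMIs in a member ran from 0 in 50 cells to 5 in 1 cell, and Dach2 UMIs from 0 in 15 cells to 5 in 1 cell. The distribution has no second peak, as the plot of cells by UMI number shows. When each cell was thinned to 2500 UMIs before the rule was applied, 2.53% of gate cells were members.

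**Figure D1:**
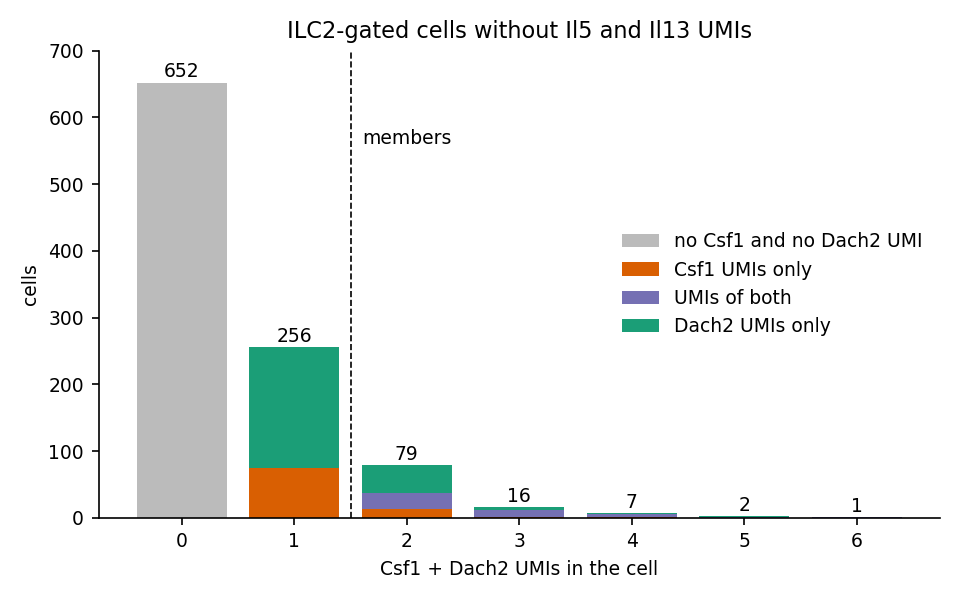
Number of IL-18R- ST2+ cells (y axis) by their summed Csf1 and Dach2 UMIs (x axis), among 1013 ILC2-gated cells without Il5 and Il13 UMIs; colours give which of the genes was seen, and the dashed line is the threshold of the rule. Cell numbers fall steadily from 652 at 0 to 1 at 6, and 79 of the 105 members lie in the first class inside the threshold.

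The transcripts that define the members were found together in about as many cells as their separate frequencies give. Csf1 was seen in 130 of the 1013 cells and Dach2 in 271, and 40 cells held both, where the product of the shares is 34.8 cells. Dach2 was seen in 30.8% of cells with Csf1 (interval 23.0 to 39.5%) and in 26.2% of cells without it (23.3 to 29.2%). The correlation of their UMIs over these cells, which share a library and differ in depth, was 0.04. Over the whole gate, thinned to 2500 UMIs, 22 cells held both and the product of the shares is 18.1. In the same thinned cells, among those without Il5 and Il13 UMIs, the variance of Dach2 UMIs over cells was 0.957 times their mean. Counting error alone gives a ratio of 1. Csf1 had a ratio of 1.18, above 1 at a low mean, and the top 1% of cells held 19.8% of its UMIs. The listed markers, at means of 0.237 to 0.598 UMIs per cell against 0.103 for Csf1 and 0.192 for Dach2, had ratios of 1.12 for Klrg1, 1.11 for Tspan32, 1.17 for Vipr2 and 1.65 for Arg1. Ratios were 15.5 for Cxcl2, 12.4 for Ccl1, 9.99 for Areg and 7.49 for Csf2, whose means of 1.28 to 3.40 UMIs per cell are higher, and the ratio grows with the mean at a like relative spread.

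In the 4 listed markers that the rule did not use, members and rest differed by less than the counting error. Klrg1 stood at 159 UPM in members and 164 UPM in the rest, a ratio of 0.973 (0.767 to 1.22). Tspan32 stood at 199 UPM in members and 171 UPM in the rest, a ratio of 1.16 (0.936 to 1.42). Vipr2 stood at 103 UPM in members and 91.5 UPM in the rest, a ratio of 1.13 (0.833 to 1.498), and Arg1 at 255 UPM in members and 225 UPM in the rest, a ratio of 1.13 (0.939 to 1.36). All 4 intervals hold 1. A UMI was seen in 53.3% of members and 45.7% of the rest for Klrg1, in 36.2% of members and 30.0% of the rest for Vipr2, and in 57.1% of members and 50% of the rest for Arg1. Just inside the threshold (2 UMIs) and just outside it (1 UMI), Klrg1 stood at 165 and 169 UPM, Tspan32 at 204 and 188 UPM, Vipr2 at 74.7 and 83.3 UPM and Arg1 at 240 and 248 UPM. The 26 members with 3 or more UMIs thus stood above the level over all members for Vipr2 and Arg1. They stood below it for Klrg1 and Tspan32, and this was not tested. Since these 4 listed markers were not higher in members beyond counting error, the cells are named here by the Csf1 and Dach2 rule alone.

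**Figure D2:**
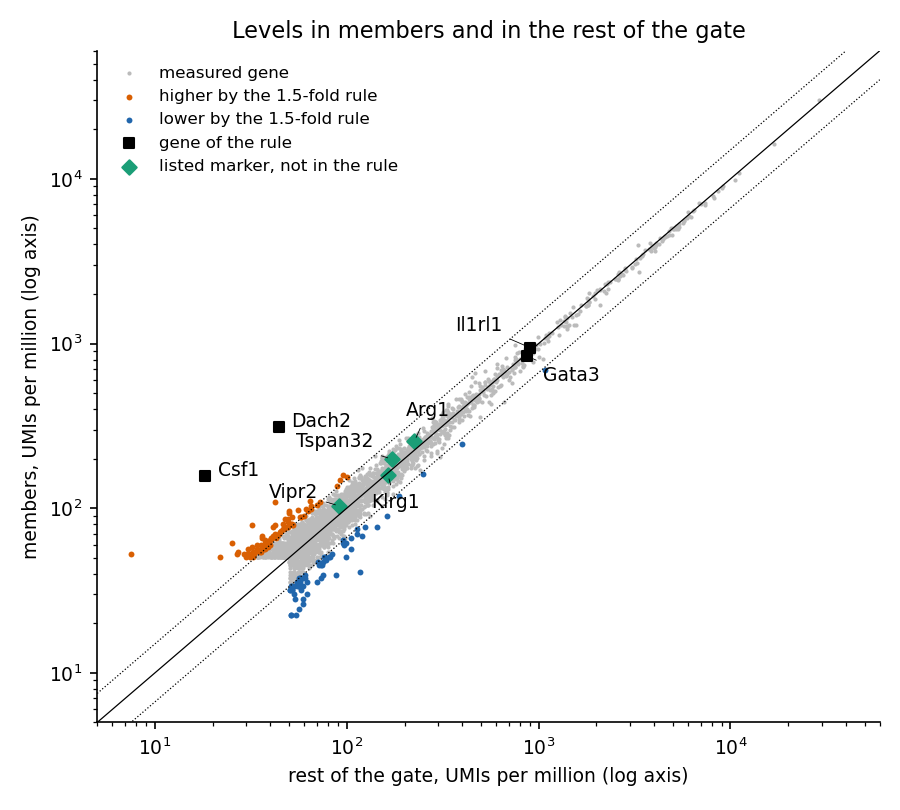
Level of each measured gene in the 105 members (y axis) and the 908 cells of the rest (x axis), in UPM on log axes; the solid line is equality and the dotted lines are 1.5-fold. Csf1 (157.5 and 18.3 UPM) and Dach2 (311 and 44.1 UPM) stand off the diagonal because the rule chose on them, while Klrg1, Tspan32, Vipr2 and Arg1 lie along it.

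Of the 14 measured genes on the ILC2 identity list that the gate did not use, 0 were higher and 1, Icos, was lower, with a median log2 ratio of -0.01. Il1rl1 stood at 945 UPM in members and 900 UPM in the rest, and Gata3 at 840 UPM in members and 866 UPM in the rest, levels on which the gate had chosen both groups. A gene counted as measured at 50 UPM or more in the higher group, and as higher or lower at a ratio of at least 1.5. By this rule 80 of 2733 measured genes were higher in members (2.93%) and 64 were lower (2.34%), and the 5th and 95th percentiles of the log2 ratio were -0.40 and 0.50. With sizes scaled by the median of ratios the split was 60 higher and 73 lower, so which direction had more genes turned on a shift of 0.03 on the log2 scale. At 50 UPM, which is 27 UMIs in the members, the counting interval of a ratio of 1 already runs from 0.653 to 1.52, and the same interval at 1000 UPM runs from 0.912 to 1.09.

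Genes of other cell types did not set the members apart. No UMI of the myeloid or the mast cell and basophil list was seen in members, against 4.14 and 3.41 UPM in the rest, so the macrophage receptor gene Csf1r was at 0 in members. B cell genes summed to 63.8 UPM in members and 74.5 UPM in the rest, mostly Ighm. Genes of stroma, endothelium and epithelium summed to 58.1 UPM in members and 48.2 UPM in the rest, globin and platelet genes to 84.4 UPM in members and 81.8 UPM in the rest, and ILC1 and NK genes to 46.9 UPM in members and 38.7 UPM in the rest. The T cell list summed to 1174 UPM in members and 1209 UPM in the rest through Trbc1, Trbc2, Lat and Cd3g, with Cd3e and Cd3d at 0 by the rule. Cycling genes summed to 161 UPM in members and 131 UPM in the rest, with Pcna the only measured one, at a ratio of 1.02.

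No gene of the effector cytokine list passed the rule, with 0 higher and 0 lower of 6 measured (2.93% and 2.34% over all measured genes). Csf2, which encodes GM-CSF, stood at 677 UPM in members and 527 UPM in the rest (ratio 1.28, 1.15 to 1.44), but 24.1% of its member UMIs came from 1 cell. Areg, which encodes the repair factor amphiregulin, stood at 1288 UPM in members and 1441 UPM in the rest (ratio 0.894, 0.825 to 0.968). Lif and Tnf had ratios of 1.07 and 0.843. Besides Csf1, only Csf2 and Flt3l of the myeloid growth factor list were measured, and Flt3l, a ligand for dendritic cell precursors, stood at 56.3 UPM in members and 47.2 UPM in the rest.

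Of 3 measured chemokine genes 2 were lower and 0 higher, where 2.34% of all measured genes were lower and 2.93% higher. Cxcl2, which encodes a neutrophil attractant, stood at 694 UPM in members and 1079 UPM in the rest (ratio 0.643, 0.577 to 0.715). A Cxcl2 UMI was seen in 47.6% of members and 42.4% of the rest, and 16.8% of its member UMIs lay in 1 cell. By Csf1 and Dach2 UMIs, Cxcl2 stood at 1058 UPM in cells with 0, 1133 with 1, 886 with 2, 209 with 3 and 135 with 4 or more, the last 2 classes being 16 and 10 cells. Cxcl10, an interferon-induced attractant of lymphocytes, stood at 46.9 UPM in members and 75.2 UPM in the rest, with 28% of its 25 member UMIs in 1 cell and 23.3% of its 309 UMIs in the rest in 1 cell. Its log2 ratio of -0.68 turned to 0.29 within the interquartile range of UMIs, to 0.038 with Il5 and Il13 not used and to 0.63 in cells with an Il5 or Il13 UMI. Ccl1, a ligand of CCR8, stood at 878 UPM in members and 776 UPM in the rest (ratio 1.13), with 23.1% of member UMIs in 1 cell.

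Of 9 measured checkpoint and costimulatory genes 0 were higher and 2, Icos and Pdcd1, were lower (2.93% and 2.34% over all measured genes). Icos, the costimulatory receptor that ILC2 engage with its ligand, stood at 246 UPM in members and 401 UPM in the rest (ratio 0.613, 0.509 to 0.733), and was seen in 45.7% of members and 58.7% of the rest. Over the classes with 0, 1, 2, 3 and 4 or more Csf1 and Dach2 UMIs it stood at 424, 343, 206, 372 and 321 UPM, so its low level lay in the class with 2. Pdcd1, which encodes the inhibitory receptor PD-1, stood at 45.0 UPM in members and 74.0 UPM in the rest. Cd200r1, an inhibitory receptor gene, had a ratio of 1.38 (1.04 to 1.81).

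Of 5 measured genes on the neuropeptide list 1, Calcrl, was higher and 1, Ramp3, was lower (2.93% and 2.34% over all measured genes). Ramp3, an accessory protein of the calcitonin receptor family, stood at 90.0 UPM in members and 162 UPM in the rest (ratio 0.555, 0.405 to 0.745), and over the 5 UMI classes at 161, 166, 103, 69.8 and 33.8 UPM. Calcrl, the receptor that RAMP proteins accompany, stood at 76.9 UPM in members and 49.4 UPM in the rest, with 29.3% of its 41 member UMIs in 1 cell. Its log2 ratio of 0.64 turned to -0.22 after thinning to 2500 UMIs, to -0.0830 at a threshold of 1, to -0.29 for Dach2 alone and to -0.68 in cells with an Il5 or Il13 UMI. Calca, the gene of the peptide CGRP, stood at 360 UPM in members and 497 UPM in the rest (ratio 0.724, 0.621 to 0.840), short of the rule.

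Of 12 measured trafficking genes 0 were higher and 1 was lower (2.93% and 2.34% over all measured genes), with 3 ratios above 1. Cxcr4, the receptor for the stromal chemokine CXCL12, stood at 28.1 UPM in members and 58.9 UPM in the rest (ratio 0.478, 0.263 to 0.803). Cxcr6, a receptor of lung-resident lymphocytes, had a ratio of 0.760 (0.660 to 0.871), and Gpr183, an oxysterol receptor gene, one of 0.676 (0.503 to 0.891). Itga4, the integrin subunit alpha 4, had a ratio of 1.32 (1.09 to 1.596). None of the last 3 passed the rule.

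Of 16 measured transcription factors of ILC, 0 were higher and 2 lower, with a median log2 ratio of 0.04. Over all measured genes 2.93% were higher and 2.34% lower. Ikzf3, which encodes the Ikaros family protein Aiolos, stood at 161 UPM in members and 250 UPM in the rest (ratio 0.644, 0.511 to 0.804). Nfil3, a factor needed early in ILC development, stood at 31.9 UPM in members and 51.6 UPM in the rest, with an interval of the ratio that holds 1 (0.353 to 1.01). Among other regulators Myc, a driver of growth, stood at 69.4 UPM in members and 44.3 UPM in the rest (ratio 1.57, 1.07 to 2.24). Of 14 measured genes on the activated ILC2 list 1 was higher (Myc) and 2 were lower (Pdcd1 and the survival gene Bcl2a1b). Of the ILC progenitor list 1 of 3 measured genes was lower (Pdcd1), and of the ILC3 list 0 of 2 passed. None of the 12 measured immediate early and heat shock genes passed the rule.

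In metabolism, the amino acid transporter gene Slc7a8 stood at 354.5 UPM in members and 279 UPM in the rest (ratio 1.27, 1.08 to 1.48), and Odc1, the first enzyme of polyamine synthesis, at 579.5 UPM in members and 728 UPM in the rest (ratio 0.796, 0.706 to 0.895). Dgat1, which makes triglycerides, was the only 1 of 5 measured genes on this list to pass the rule, at 75.02 UPM in members and 114 UPM in the rest (ratio 0.660, 0.465 to 0.912). Of the alarmin and cytokine receptor list 0 of 14 measured genes passed in either direction, and of the prostaglandin and leukotriene list 0 of 5. Antigen presentation genes (0 of 3) and tissue repair growth factor genes (0 of 5) did not pass the rule either. Over all measured genes 2.93% were higher and 2.34% lower.

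The largest ratio of any measured gene outside the rule was that of Yae1d1, at 52.5 UPM in members and 7.55 UPM in the rest, but 67.9% of its member UMIs lay in 1 cell. Stc2, which encodes the secreted glycoprotein stanniocalcin 2, followed at 109 UPM in members and 42.4 UPM in the rest (ratio 2.57, 1.87 to 3.48), on 58 member UMIs spread over 28.6% of members. Arl5c, Sik2 and Coq2 had ratios of 2.47, 2.47 and 2.31. Cbx5, which encodes heterochromatin protein 1 alpha, had a ratio of 2.01 and Smarcc1, a SWI/SNF subunit gene, one of 1.96. On the lower side Gem, a small GTP-binding protein gene, stood at 41.3 UPM in members and 117 UPM in the rest (ratio 0.352, 0.219 to 0.540), with 36.4% of its member UMIs in 1 cell. Ier5l, Pa2g4, Rcbtb2, Hk2 (hexokinase 2), Yes1 (a Src family kinase) and Prr7 had ratios of 0.416, 0.434, 0.438, 0.438, 0.446 and 0.448. The member sums of these genes were between 12 and 58 UMIs.

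The 480 gate cells that held an Il5 or Il13 UMI, which the rule left out, give the same split in other cells. There 47 cells had at least 2 Csf1 and Dach2 UMIs and 433 had fewer. Of the 80 genes higher in members, 41 had a ratio above 1 there (51.3%), against 50.4% of all 2733 measured genes. Of the 64 lower genes, 19 had a ratio above 1 there (29.7%), with a median log2 ratio of -0.25. Cxcl2 was again below 1, at 1223 UPM in the 47 cells and 1679 UPM in the 433 (ratio 0.729, 0.654 to 0.809), as was Areg at 1586 and 2261 UPM (0.702, 0.639 to 0.769). Of the UMIs of the 47 cells, 14.1% lay in 1 cell for Cxcl2 and 6.2% for Areg. Icos and Ramp3 were level, with ratios of 1.01 and 1.00. Csf2 had the ratio it had in members, 1.28 (1.15 to 1.43), with 29.3% of the UMIs of the 47 cells in 1 of them. Tnf, at 0.843 in members, had a ratio of 2.33 (1.56 to 3.41) here, on 36 UMIs of the 47 cells with 22.2% in 1 of them. Stc2 was again above 1, at 70.1 UPM in the 47 cells and 30.0 UPM in the 433 (ratio 2.33, 1.38 to 3.81), with 22.7% of the UMIs of the 47 cells in 1 of them.

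Of the 4 listed markers, level among cells without Il5 and Il13 UMIs, 3 stood above 1 beyond counting error among cells with them. Vipr2 stood at 124 UPM in the 47 cells and 75.5 UPM in the 433 (ratio 1.65, 1.13 to 2.34), and was seen in 51.1% and 27.7% of them. Klrg1 stood at 236 UPM in the 47 cells and 165 UPM in the 433 (ratio 1.43, 1.10 to 1.84), and Arg1 at 344 and 254 UPM (1.36, 1.10 to 1.67). Tspan32 had a ratio of 1.09 (0.786 to 1.48). Itga4 stood at 357 UPM in the 47 cells and 184 UPM in the 433 (ratio 1.94, 1.56 to 2.39), the same direction as in members. Over all measured genes the 5th and 95th percentiles of this ratio were 0.658 and 1.43, and no difference between both kinds of cells was tested.

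**Figure D3:**
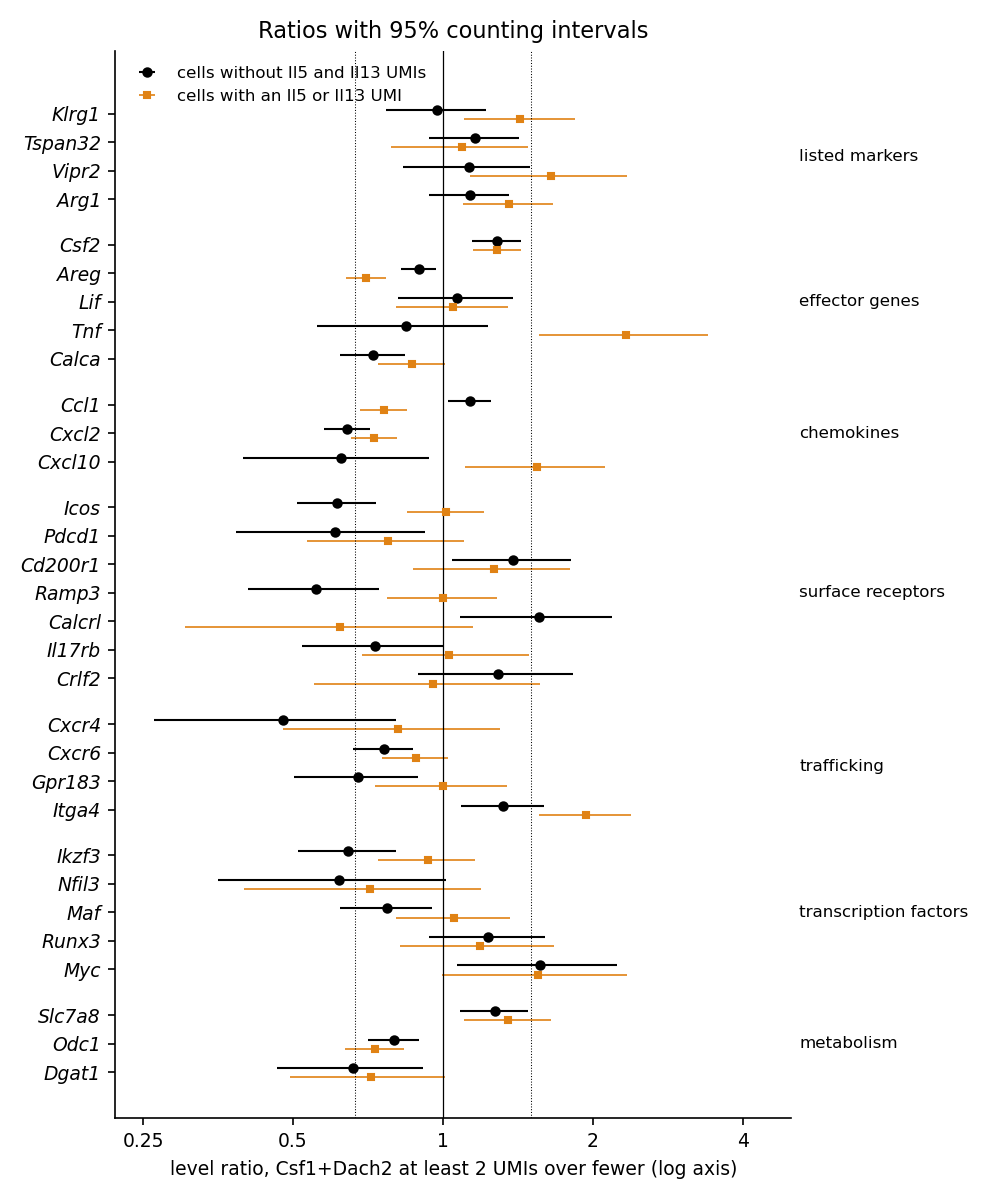
Level of each gene in cells with at least 2 Csf1 and Dach2 UMIs over cells with fewer, on a log2-spaced axis, with 95% counting intervals; black circles are cells without Il5 and Il13 UMIs (105 and 908), orange squares cells with one (47 and 433), and dotted lines mark 1.5-fold. Cxcl2 and Odc1 lie below 1 and Slc7a8 and Itga4 above 1 in both kinds of cells, whereas Icos is at 0.613 in the first and 1.01 in the second.

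Cells that held Csf1 alone were also set against cells that held Dach2 alone. Among the 1013 cells, 90 held Csf1 and no Dach2 UMI and 231 held Dach2 and no Csf1 UMI. Most of them were not members, since 75 of the 90 and 181 of the 231 held only 1 such UMI. Of 2810 measured genes 195 were higher in the Csf1-only cells (6.94%) and 153 were lower (5.44%), with fewer UMIs in the smaller group (399947 in all) than the 533220 of the members. Genes named for this contrast were chosen after their values were seen.

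Of 4 measured chemokine genes 2 were lower in Csf1-only than in Dach2-only cells and 1, Ccl5, was higher. Over all measured genes of this contrast 5.44% were lower and 6.94% higher. Cxcl2 stood at 433 UPM in Csf1-only cells and 1242 UPM in Dach2-only cells (ratio 0.348, 0.295 to 0.408), and was seen in 30.0% and 44.2% of them. Ccl1 stood at 450 UPM in Csf1-only cells and 1059 UPM in Dach2-only cells (ratio 0.425, 0.361 to 0.498). Of 14 measured genes on the activated ILC2 list 0 were higher and 4 lower (6.94% and 5.44% over all measured genes). Their median log2 ratio was -0.32, against 0.03 over all measured genes. The 4 were the NF-kB subunit genes Nfkb1 and Rel and the nuclear receptor genes Nr4a2 and Nr4a3. Nfkb1 and Rel had ratios of 0.588 (0.521 to 0.663) and 0.496 (0.341 to 0.704), and Nr4a2 and Nr4a3 of 0.549 and 0.603. Of 12 measured immediate early and heat shock genes and 6 effector cytokine genes 0 passed the rule in either direction, with Egr1, an immediate early gene, at a ratio of 0.950 (0.814 to 1.11) and Csf2 at 678 UPM in Csf1-only cells and 542 UPM in Dach2-only cells. Cd69, an early activation antigen, had a ratio of 1.05 (0.923 to 1.19). Icos stood at 205 UPM in Csf1-only cells and 362 UPM in Dach2-only cells (ratio 0.567, 0.441 to 0.721), and Odc1 at 400.1 and 712 UPM (0.562, 0.471 to 0.667).

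Txnip, an inhibitor of thioredoxin and of glucose uptake, was higher in Csf1-only cells, at 240.0 UPM against 95.3 UPM in Dach2-only cells (ratio 2.52, 1.89 to 3.36). Ccrl2, an atypical chemoattractant receptor gene, had a ratio of 2.33 (1.61 to 3.38), with 22.8% of its UMIs in Csf1-only cells lying in 1 cell. Rbpj, the DNA-binding partner of Notch, had a ratio of 1.56 (1.26 to 1.93). Cells with neither transcript lay near the Dach2-only cells for most of these genes, and cells with both near the Csf1-only cells for Ccl1 and Nr4a2. The listed markers did not separate the classes, with Klrg1 at a ratio of 1.05 (0.782 to 1.40), Tspan32 at 1.13 (0.864 to 1.48), Vipr2 at 0.991 (0.644 to 1.49) and Arg1 at 0.841 (0.655 to 1.07). Among members alone, 15 with Csf1 only and 50 with Dach2 only, Txnip (464 and 70.7 UPM) and Cxcl2 (288 and 703 UPM) kept their direction. Csf2 (512 and 982 UPM) and Ccrl2 (32.0 and 47.2 UPM) had the other one.

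**Figure D4:**
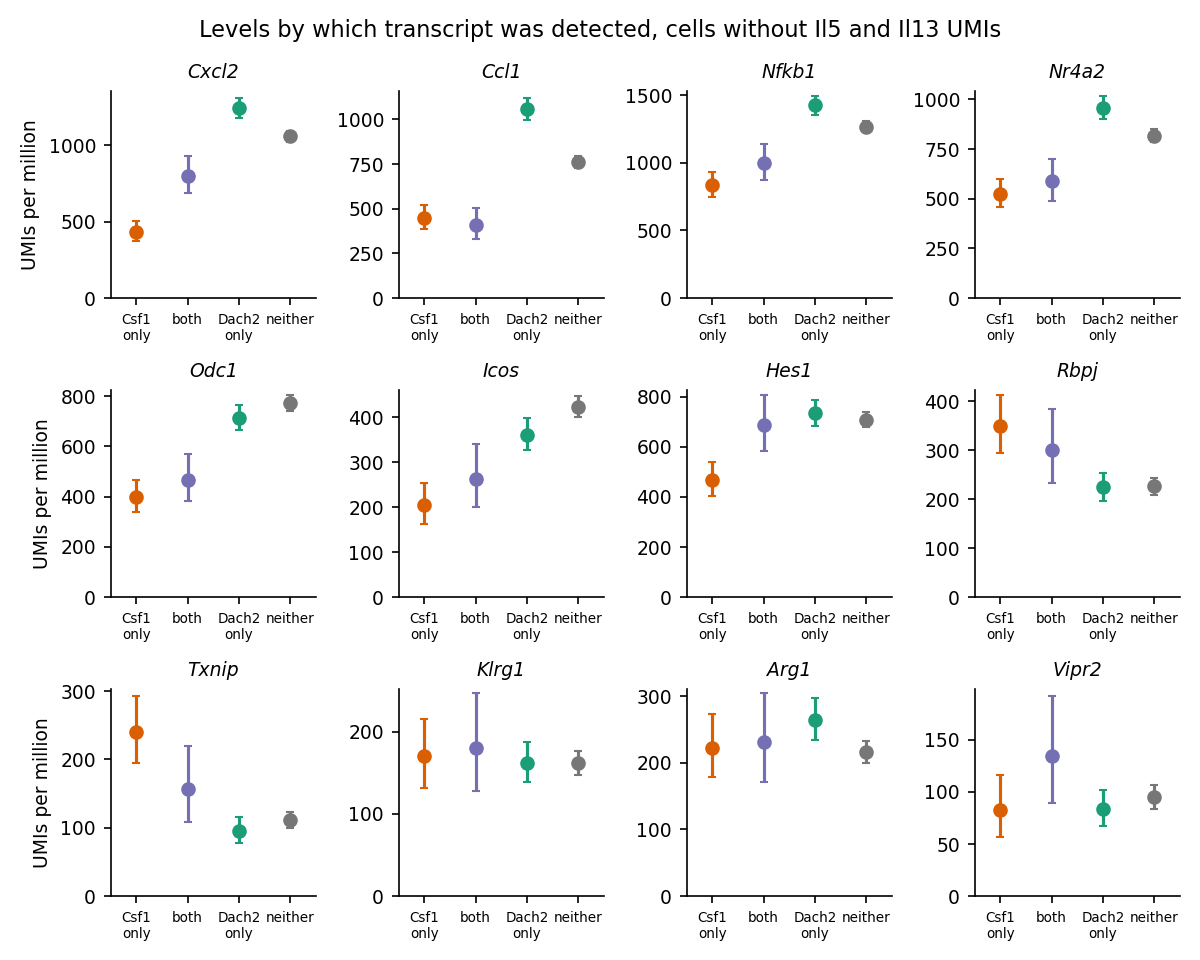
Levels of 12 genes in UPM (y axes, each from 0 with its own scale) in cells with Csf1 only (90), both (40), Dach2 only (231) or neither transcript (652), with 95% counting intervals. Cxcl2, Ccl1, Nfkb1, Nr4a2, Odc1 and Icos are lower in Csf1-only than in Dach2-only cells, Rbpj and Txnip are higher, and Klrg1, Arg1 and Vipr2 overlap.

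Little of this contrast appeared in the cells with an Il5 or Il13 UMI, where 36 held Csf1 only and 103 Dach2 only. Of the 195 genes higher in Csf1-only cells 48.7% had a ratio above 1 there, and of the 153 lower genes 51.6%, against 49.0% of all measured genes. Odc1 (0.577, 0.482 to 0.687), Cxcl2 (0.723, 0.631 to 0.827) and Rbpj (1.36, 1.02 to 1.79) were on the same side of 1 as in cells without those UMIs. Ccl1 and Nr4a2 were on the other side, with ratios of 1.27 (1.14 to 1.43) and 1.18 (1.02 to 1.36). Txnip had a ratio of 1.39 (0.804 to 2.33) and Ccrl2 of 0.667 (0.388 to 1.10), with intervals that hold 1. None of these intervals covers the spread over cells. In thinned cells without Il5 and Il13 UMIs the variance of UMIs over cells was 12.4 times the mean for Ccl1 and 15.5 times for Cxcl2. Ccl5, an attractant of T and NK cells, had ratios of 2.58 in cells without and 3.19 in cells with Il5 or Il13 UMIs, on few cells, since it was seen in 11.1% of Csf1-only and 3.90% of Dach2-only cells without them.

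At the rule's threshold of 2, the shares of gate cells with an Il5 or Il13 UMI had overlapping intervals on both sides of the line. With the line at any Csf1 or Dach2 UMI, a thinned setting chosen after seeing the data gave a lower share with one than without. The intervals of those shares stood just apart, in 1 random thinning. An Il5 or Il13 UMI was found in 47 of 152 gate cells with at least 2 Csf1 and Dach2 UMIs (30.9%, 23.7 to 38.9%) and in 433 of 1341 with fewer (32.3%, 29.8 to 34.9%). Il5 stood at 144 UPM in the first and 183 UPM in the second, and Il13 at 205 UPM in the first and 186 UPM in the second. With the line drawn at any Csf1 or Dach2 UMI the shares were 29.4% of 511 cells with one and 33.6% of 982 cells without. Shares of cells with a UMI rise with depth, so they were also read after thinning to 2500 UMIs, where they were 18.6% (14.5 to 23.3%) of 323 cells with a Csf1 or Dach2 UMI and 26.01% (23.5 to 28.7%) of 1138 without. In the 374 cells with fewest UMIs they were 9.26% (4.53 to 16.4%) of cells with and 22.6% (17.7 to 28.1%) of cells without, and in the 373 deepest cells 51.0% with and 54.5% without. At the rule's threshold of 2 the thinned shares were 22.6% of 53 cells and 24.4% of 1408.

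**Figure D5:**
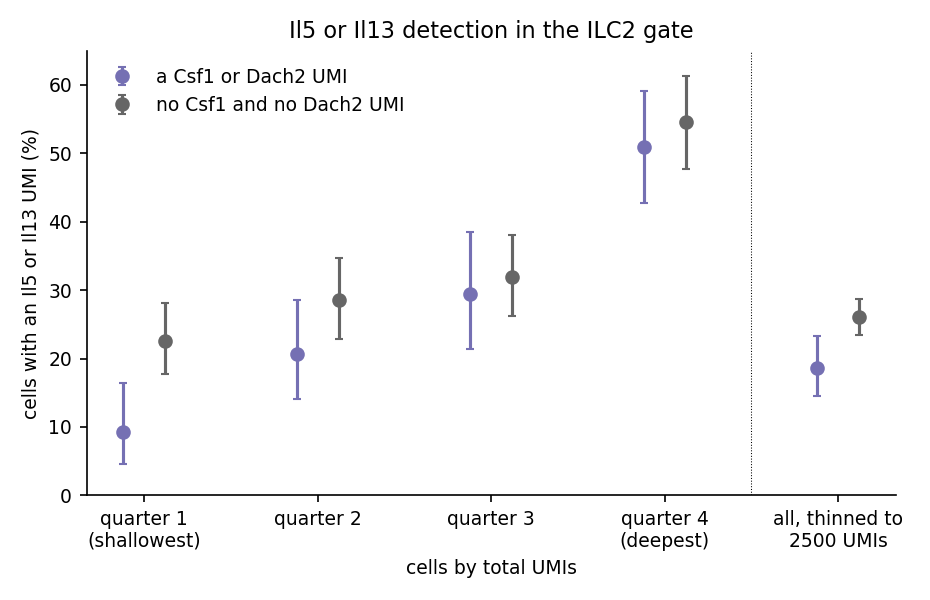
Share of ILC2-gated cells with an Il5 or Il13 UMI (y axis, percent) among cells with and without a Csf1 or Dach2 UMI, in 4 classes of total UMIs (373 or 374 cells each) and after thinning all cells to 2500 UMIs, with 95% binomial intervals. The share is lower with a Csf1 or Dach2 UMI in each class, most in the shallowest (9.26% against 22.6%), and the intervals overlap in the 3 deeper classes.

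In the mouse genome GRCm38 (GENCODE M21 annotation), Csf1 lies on the minus strand of chromosome 3 from 107741048 to 107760469 and Dach2 on the plus strand of the X chromosome from 113297510 to 113836386. Klrg1 lies on chromosome 6 from 122270596 to 122282882, Tspan32 on chromosome 7 from 143005046 to 143019644, Vipr2 on chromosome 12 from 116077726 to 116146261 and Arg1 on chromosome 10 from 24915221 to 24927484. The 3-prime libraries count reads at transcript ends, so they give no level along these genes and no isoform.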

How the data were processed

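Per the labels' protocols, perfused mouse lungs were digested, lymphocytes were enriched on Percoll and sorted, and libraries were made with the 10x Chromium 3' v3.1 kit. Reads were processed with Cell Ranger 6.0.1 on build mm10, as the submitters' processing notes state; the annotation is not given in the sources used here. The deposited matrices hold counts, whole UMIs per gene (32285) and barcode, not normalised. Alignment and cell calling were not repeated, and no correction for free RNA was made, as empty droplets were not used here.

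The 3 libraries form 3 groups of 1 sample. Cells were kept at 500 genes or more and 10% mitochondrial UMIs or less, and chosen by the rule given at the start. UMIs were summed over cells and scaled to 1000000 UMIs (UPM). A gene was higher or lower at a ratio of 1.5 or more in either direction, with 50 UPM or more in the higher group and sums raised to a floor of 3 UMIs; the 8 genes of the rule were left out. Intervals are 95% (exact Poisson, Clopper-Pearson, or the exact binomial interval of the share of UMIs for ratios) and cover counting error only. Cells were thinned without replacement. Doublets (Scrublet in scanpy 1.11.5, 11 of 1622 cells, 0.678%) were kept. The script was tested on simulated data.

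The members, markers and 26 gene lists were chosen with earlier results of these data known. Named genes were the markers and gate genes, the 12 genes with the largest ratio in each direction seen in 5% or more of the cells of the higher group (no predicted, ribosomal or mitochondrial genes), up to 4 genes with the largest log2 ratio from each list, and list genes that passed the rule. Alternatives changed the level, fold, scaling, depth, thresholds and filters. Some items are not reported here.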

Additional observations from a re-analysis of the deposited data

How the results depend on the processing

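No paired analysis was possible because each group is 1 library and no test was run. The counts of genes higher and lower in members were 445 and 258 with a minimum of 20 UPM, 6394 and 736 with none (where the floor of 3 UMIs is worth more in the smaller group), 6 and 9 at 2-fold, 184 and 128 without ribosomal and mitochondrial UMIs in the totals (which lifts more genes past the minimum), 200 and 157 after thinning, and 285 and 181 within the interquartile range of UMIs. They were 16 and 9 at a threshold of 1 Csf1 and Dach2 UMI, 460 and 234 at 3, 767 and 400 for Csf1 alone (22 members), 152 and 109 for Dach2 alone (61 members), and 37 and 31 with Il5 and Il13 not used. Smaller groups gave more calls. Leaving out cells with 2 or more UMIs of other cell types left 8 members and 1798 and 211 calls. The T cell list holds Trbc1, Trbc2, Lat and Cd3g, which were seen in members and in the rest. The part of free RNA in them was not tested. Settings chosen after seeing the data gave 104 and 98 calls when that filter left the T cell list and Ighm unused (87 members), and 36 and 105 when each gene lost its highest cell, which takes the larger share from the smaller group. The other settings gave 60 to 102 higher and 64 to 73 lower genes.

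The share of gate cells that were members was 24.2% at a threshold of 1, 1.74% at 3, 1.47% for Csf1 alone, 4.09% for Dach2 alone, 10.2% with Il5 and Il13 not used and 2.53% after thinning. The difference in Il5 or Il13 share between gate cells with at least 2 Csf1 and Dach2 UMIs and with fewer was -1.37 percentage points (-8.63 to 6.75) and ran from -2.03 to 2.27 over the alternatives at that threshold. At a threshold of 1 it was -4.25, and -7.43 after thinning, where the intervals of both shares do not overlap (14.5 to 23.3% with and 23.5 to 28.7% without). That thinned setting was chosen after seeing the data and rests on 1 random thinning. The interval of -8.63 to 6.75 belongs to the threshold of 2 without thinning, so it does not bear on the difference of -7.43.

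Named genes that had passed the rule changed sign as follows, given as log2 ratios, and the cause was not tested. After thinning it was Calcrl -0.22, and within the interquartile range Cxcl10 0.29. At a threshold of 1 they were Calcrl -0.0830, Nfil3 0.00695, Uri1 0.0504 and Yes1 0.00928. For Csf1 alone they were Arl5c -0.31, Bcl2a1b 0.57, Btbd9 0.48, Gem 0.29, Gse1 -0.41 and Hk2 0.0756, for Dach2 alone Calcrl -0.29 and Yae1d1 -0.037, and with Il5 and Il13 not used Cxcl10 0.038. Among the 8 members left without other cell types' UMIs they were Bcl2a1b 1.602, Btbd9 0.079, Cxcl10 0.017, Dhx40 0.21, Hk2 1.28, Ier5l 0.28, Nfil3 1.14, Pa2g4 1.28, Pdcd1 0.017, Prr7 0.079, Ramp3 0.43, Rcbtb2 1.14, Uri1 0.90 and Yes1 0.80. In cells with an Il5 or Il13 UMI they were Arl5c -0.51, Calcrl -0.68, Cxcl10 0.63, Gse1 -0.22, Icos 0.022, Ier5l 0.38, March2 -0.037, Pa2g4 0.075, Ramp3 0.0024 and Sik2 -0.067.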
